A study of Rattus norvegicus with 23 samples.

Results

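The selectins and leukocyte adhesion molecules were 9 genes, taken by name from the 20301 genes of a log2 expression table of sorted rat microglia. 4 of them stand for the endothelial side of leukocyte capture (Selp, Sele, Icam1 and Vcam1) and 5 for the leukocyte side (Selplg, Itgb2, Itgal, Itgam and Itga4). All 9 had a value in all 23 libraries, and no filter on low values was applied. The samples were microglia of 7-day-old Wistar pups of both sexes, enriched with magnetic beads against CD11b/c and taken 24 h after the operation. Sham (n = 6) and LPS (n = 5) samples each held the entire brain of 1 pup. NaCl/HI (n = 6) and LPS/HI (n = 6) samples each held the pooled left hemispheres of 2 pups, the side on which the common carotid artery had been ligated before 50 min at 8% oxygen, the hypoxia-ischemia (HI) of a mild model. The LPS and LPS/HI pups had received lipopolysaccharide at 0.1 mg/kg into the peritoneum 4 h earlier, the NaCl/HI pups saline, and no injection is listed for Sham. The study asked how systemic inflammation before HI alters what microglia express. HI went together with hemisphere tissue and with pooling, so these cannot be told apart wherever an HI group was set against a group without HI.

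Leukocytes leave the blood in steps. P-selectin (Selp), stored in platelets and in endothelial cells, and E-selectin (Sele), made by endothelium after cytokine or endotoxin exposure, slow the cells by binding sugar-bearing ligands such as PSGL-1 (Selplg). The integrins LFA-1 (Itgal with Itgb2) and Mac-1 (Itgam with Itgb2) then bind ICAM-1 (Icam1), and VLA-4 (Itga4 with Itgb1) binds VCAM-1 (Vcam1). Microglia are themselves myeloid cells and carry the leukocyte integrins, and Itgam encodes CD11b, an antigen of the sort, so it is no independent readout of the sorted cells. ICAM-1 is also made by activated microglia, so its gene marks a side of the process more than a cell type.

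Values are log2 and had been variance-stabilised before deposit, which draws the differences of weakly expressed genes toward 0. Library medians lay between 7.75 and 7.82, the read depth behind them is unknown, and replicates of a group correlated across genes at 0.998 to 1.0. Microglial markers were high (Csf1r 16.46, Cx3cr1 15.55 on average over all libraries), except Siglech at -1.05. Endothelial transcripts were also present, with 17 of 18 listed markers in the table, Vwf at 12.96, Tie1 at 12.46 and Pecam1 at 12.35. For neutrophils, 14 of 14 markers were in the table, S100a8 between 7.98 and 10.95 and Mmp8 between 6.00 and 9.26, while Elane, a marker of immature neutrophils, stayed between 0.25 and 0.44. Platelet markers counted 9 of 12, with Pf4 (which border macrophages also express) at 10.02 and Gp5 at 1.45. In sorted bulk samples of this kind, more cells of a type and more RNA per cell cannot be told apart.

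The sequences before the starts of Vcam1 and Icam1 are shown because these immunoglobulin-type ligands bind the leukocyte integrins, and because Vcam1 was called in 1 comparison below and Icam1 in 0. They come from RefSeq on rat build GRCr8, whereas the table was made on mRatBN7.2 and holds no coordinates. 5 of the 9 members had an upstream entry, and for the other 3 of them the window lay within the annotated gene. Capitals mark GGGTTTCCC, GGGATTTCC and a TATAAA run in Vcam1 and GGAAATTCC in Icam1.
Vcam1, chr2:206742784-206743033, minus strand, 250 bases: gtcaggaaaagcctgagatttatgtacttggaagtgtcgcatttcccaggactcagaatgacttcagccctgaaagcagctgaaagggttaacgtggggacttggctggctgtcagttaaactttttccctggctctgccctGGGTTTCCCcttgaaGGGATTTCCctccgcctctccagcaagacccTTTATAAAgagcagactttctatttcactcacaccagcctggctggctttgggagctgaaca
Icam1, chr8:27829595-27829687, plus strand, 93 bases: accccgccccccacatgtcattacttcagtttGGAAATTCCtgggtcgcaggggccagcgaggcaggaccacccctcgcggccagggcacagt
Vcam1 held GGGATTTCC at 93 to 85 bases before its start, a match to the NF-kB-type motif GGGNTTTCC, which 1.35% of 33469 rat upstream windows of 250 bases hold on either strand. GGGTTTCCC lay just before it, at 108 to 100 bases, without overlap (0.376% of windows, a motif chosen after the sequence was seen). TATAAA at 60 to 55 bases, overlapped by its match on the other strand at 62 to 57, occurs in 12.9% of such windows. Icam1 held GGAAATTCC at 61 to 53 bases before its start, a match to GGANATTCC, which 0.320% of windows of 93 bases hold. Those windows were the first 93 bases of each upstream entry, which need not end at the start of the gene. These matches are letters in a window, and no binding was measured.

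P-selectin (Selp) had a higher level in LPS/HI than in Sham, LPS or NaCl/HI, with calls against LPS and NaCl/HI that depended on the fit. The LFA-1 alpha chain (Itgal) was higher in LPS than in Sham, and Sele, Icam1, Itgam and Itga4 passed the test in no comparison. A gene was called at an adjusted p under 0.05 in limma, over all 20301 genes. LPS/HI against Sham called 2 of the 9 members, both higher (Selp and Itgal), against 8.77% of all genes. LPS/HI against LPS called 1, Selp, against 1.94% of all genes. LPS/HI against NaCl/HI also called 1, again Selp, against 0.202% of all genes. With a fold change above 2 required as well, Selp was the 1 member left in each of these comparisons, which then called 0.0936%, 0.0345% and 0.0148% of all genes. LPS against Sham called 1 member, Itgal, a share no larger than the 17.8% of all genes called there. LPS against NaCl/HI called 4, Vcam1 and Itgal higher and Itgb2 and Selplg lower in LPS, against 8.98% of all genes. NaCl/HI against Sham called 0 of 9 by limma, with 2 members at an unadjusted p under 0.05 (the exact Wilcoxon test also gave 0, but no gene could pass it here after adjustment), where 0.00985% of all genes were called. The interaction, that is the difference between the LPS effect with HI and the LPS effect without it, called 1 member, Itgal, against 1.08% of all genes.

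**Figure D1:**
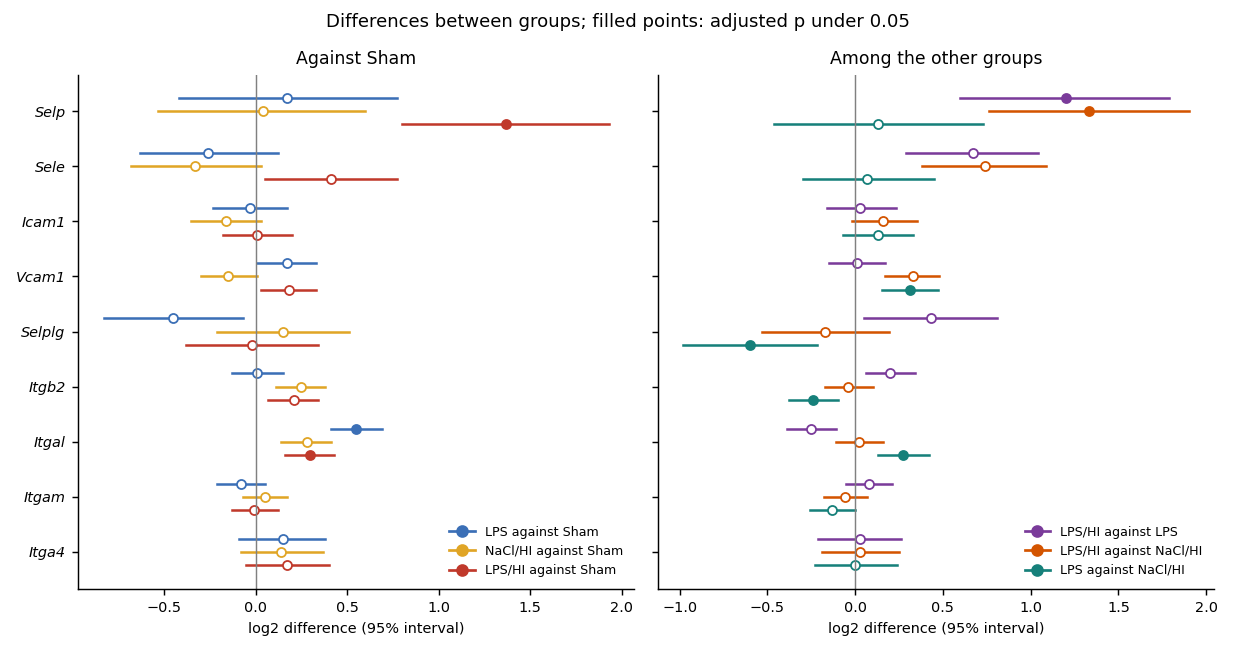
Differences between groups for the 9 members, on the log2 scale (x axis) with 95% intervals, by gene (y axis), comparisons against Sham on the left and the others on the right. Filled points have an adjusted p under 0.05: Selp is filled in all 3 comparisons of LPS/HI, Itgal in 3 comparisons, and Sele, Icam1, Itgam and Itga4 in none.

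Medians over each side describe the members by role. Between LPS/HI and NaCl/HI the median difference was 0.53 over the 4 endothelial-side genes and -0.04 over the 5 leukocyte-side genes, beside 0.00 over all genes tested. Between LPS/HI and Sham it was 0.29 and 0.17, and all 4 endothelial-side genes had the higher mean in LPS/HI. Between NaCl/HI and Sham the medians were -0.15 on the endothelial and 0.15 on the leukocyte side, where 1 of 4 and 5 of 5 genes had the higher mean in NaCl/HI. LPS against Sham gave 0.07 and 0.01, and LPS/HI against LPS 0.35 and 0.08. These medians describe the few genes named, and no test compared the sides.

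Selp, which encodes P-selectin, gave the largest differences of the 9 members. Its log2 values ran from 4.66 to 6.13 in Sham (median 5.48) and from 5.09 to 5.93 in NaCl/HI (median 5.47). In LPS they were 5.95, 5.47, 5.90, 4.97 and 5.76, and in LPS/HI they ran from 5.98 to 7.77 (median 6.69). Every LPS/HI sample thus lay above all LPS and NaCl/HI samples, and 5 of the 6 lay above all Sham samples. Replicate 6 at 5.98 was the exception, below the highest Sham value. The group means were 6.81 ± 0.62 (SD, n = 6) in LPS/HI, 5.61 ± 0.40 (n = 5) in LPS, 5.48 ± 0.30 (n = 6) in NaCl/HI and 5.44 ± 0.58 (n = 6) in Sham, and the lower 3 did not differ beyond their spread.

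By limma, Selp was 2.58-fold higher in LPS/HI than in Sham, a log2 difference of 1.37 (95% interval 0.80 to 1.93, adjusted p = 0.00595). Against LPS it was 2.29-fold higher (1.20, interval 0.60 to 1.79, adjusted p = 0.0354), and against NaCl/HI 2.51-fold higher (1.33, interval 0.76 to 1.90, adjusted p = 0.046). LPS alone moved it by 0.17 and HI alone by 0.04, both within the spread. The sizes were alike in libraries numbered 1 to 12 and in the later ones (1.27 and 1.47 against Sham, 1.06 and 1.42 against LPS, 1.32 and 1.34 against NaCl/HI). The call against Sham held in all 23 fits that left out a library. Against LPS it was lost on leaving out any of 3 LPS libraries (replicates 2, 4 and 5) or 4 LPS/HI libraries (1, 2, 4 and 5), with an adjusted p of up to 0.134. Against NaCl/HI it was lost in 19 of 23 such fits, up to 0.124, and held only without Sham replicate 5, LPS replicate 4 or LPS/HI replicate 1 or 6. Over all 35 other fits and tests, the exact Wilcoxon test included, the adjusted p was under 0.05 in 33 against Sham, in 22 against LPS and in 6 against NaCl/HI. The latter calls were both lost without a variance trend and with the 2 groups alone. The Wilcoxon test bears on neither, since its smallest possible p (0.00433 for 6 against 5 and 0.00216 for 6 against 6), which Selp reached, adjusted to 0.104 and 0.162. The interaction for Selp was 1.16 (SE 0.40, adjusted p = 0.16), so a larger response to LPS with HI than without it was not shown. The study picked out this gene on the same samples, and these values are not independent evidence of its direction.

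Neutrophil transcripts were given beside Selp because some were also higher in LPS/HI. The mean over the 14 neutrophil markers ranged from 6.38 to 6.80 in Sham, 6.19 to 6.60 in LPS, 6.23 to 6.79 in NaCl/HI and 6.55 to 7.41 in LPS/HI, and of the 14, 5 were called higher in LPS/HI than in Sham (8.77% of all genes called), 1 than in LPS (1.94%) and 1 than in NaCl/HI (0.202%). With that mean as a covariate, Selp differed by 0.81 from Sham (adjusted p = 0.0808), by 0.38 from LPS (adjusted p = 0.785) and by 0.69 from NaCl/HI (adjusted p = 0.46). Endothelial markers lay between 10.74 and 11.05 in LPS/HI, overlapping Sham at 10.74 to 10.93, and 2 of 17 were called higher in LPS/HI than in Sham, a share near that of all genes. LPS lay at 10.57 to 10.83 and NaCl/HI at 10.64 to 10.75. The higher mean was in LPS/HI for 13 of 17 endothelial markers against Sham and for 16 of 17 against LPS (2 called, 1.94% of all genes). Against NaCl/HI it was in LPS/HI for 17 of 17 (0 called by limma, 0.202% of all genes). With the endothelial mean as a covariate the Selp differences were 1.29, 0.97 and 1.15 (adjusted p = 0.0146, 0.265 and 0.3 by limma). Platelet markers lay at 6.25 to 6.41 in LPS/HI and 6.33 to 6.58 in Sham, 1 of 9 had the higher mean in LPS/HI (median -0.10, 1 called lower), and with their mean as a covariate the differences were 1.03, 1.25 and 1.16 (adjusted p = 0.0655, 0.0142 and 0.0659). These covariates were added after the data were seen, and the part of neutrophils, endothelium and platelets in the Selp result was not tested.

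**Figure D2:**
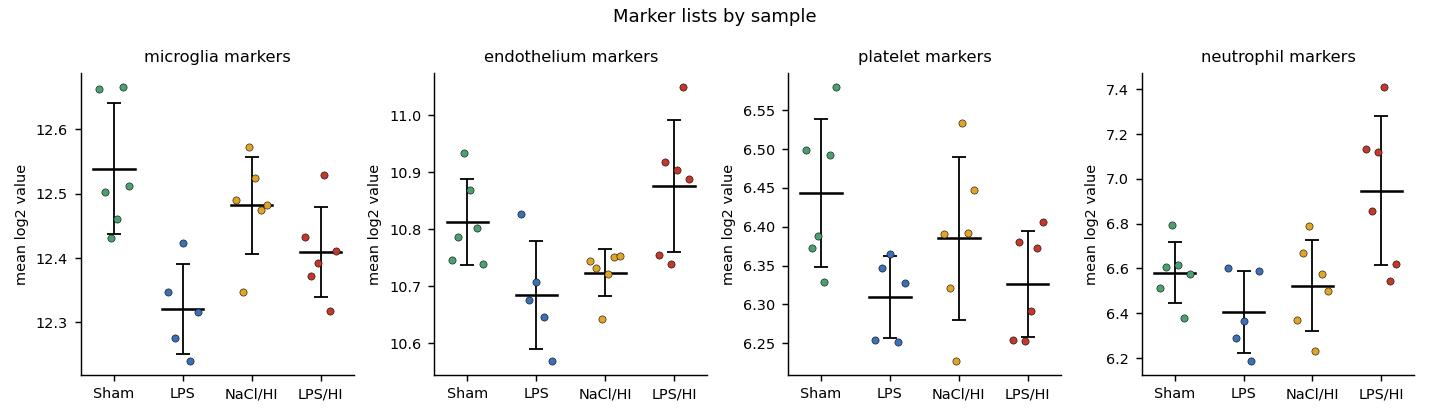
Mean log2 value (y axis) over the markers of microglia, endothelium, platelets and neutrophils in each sample (points) by group (x axis), with group mean and SD as bars. LPS/HI reaches 7.41 for neutrophil markers, above every other group, while its platelet markers lie at 6.25 to 6.41.

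E-selectin (Sele) also had its highest mean in LPS/HI, at 6.19 ± 0.48 (SD, n = 6), followed by 5.78 ± 0.20 in Sham, 5.52 ± 0.28 in LPS (n = 5) and 5.45 ± 0.16 in NaCl/HI. Its values ran from 5.53 to 6.10 in Sham (median 5.71), from 5.25 to 5.65 in NaCl/HI (median 5.49) and from 5.62 to 6.96 in LPS/HI (median 6.19). The 5 LPS samples lay at 5.80, 5.61, 5.66, 5.47 and 5.07. LPS/HI replicates 3 and 6, at 5.62 and 5.76, lay among the other groups, and the remaining 4 lay above every sample outside LPS/HI, where the highest was 6.10. Sele missed the threshold in every comparison. LPS/HI exceeded NaCl/HI by 0.74 (interval 0.38 to 1.09, adjusted p = 0.0759 by limma), LPS by 0.67 (0.29 to 1.04, adjusted p = 0.0557) and Sham by 0.41 (0.05 to 0.77, adjusted p = 0.131). The interaction came to 0.99 (SE 0.25, adjusted p = 0.0547). Without LPS/HI replicate 3 the adjusted p fell to 0.0438 against NaCl/HI, 0.0232 against LPS and 0.025 for the interaction. The interaction was also past the threshold without Sham replicate 5 or NaCl/HI replicate 4, and the difference from LPS without LPS/HI replicate 6. Against LPS the difference was 0.31 in libraries 1 to 12 and 1.10 in the later ones, and against Sham 0.17 and 0.65. Endothelial markers moved along, with a higher mean in LPS/HI for 16 of 17 against LPS and 17 of 17 against NaCl/HI, and 17 of 17 above 0 in the interaction. With their mean as a covariate, Sele differed by 0.36 from LPS (adjusted p = 0.479) and 0.50 from NaCl/HI (adjusted p = 0.513), the interaction was 0.55 (adjusted p = 0.362), and the part of endothelium was not tested.

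ICAM-1 (Icam1), the ligand of LFA-1 and Mac-1, passed the test in no comparison. It ran from 13.44 to 13.77 in Sham, 13.41 to 13.63 in LPS, 13.17 to 13.82 in NaCl/HI and 13.39 to 13.75 in LPS/HI, and all groups overlapped. The difference between LPS/HI and Sham was 0.01, with a 95% interval of -0.18 to 0.20, which leaves out a change of the size seen for Selp. The widest of the Icam1 differences, LPS/HI above NaCl/HI by 0.16 and NaCl/HI below Sham by 0.16, had adjusted p values of 0.557 and 0.42 in limma. LPS lay 0.13 above NaCl/HI (adjusted p = 0.452), and with the platelet marker mean as a covariate by 0.25, which passed (adjusted p = 0.0152). Platelet markers lay at 6.25 to 6.37 in LPS and 6.23 to 6.53 in NaCl/HI, and their part in Icam1 was not tested.

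VCAM-1 (Vcam1), the ligand of VLA-4, was called in 1 comparison, LPS against NaCl/HI, in which LPS and HI both differ. Values were 9.81, 9.92, 9.96, 9.93 and 9.89 in LPS and 9.88 to 10.01 in LPS/HI (median 9.90). They were 9.35 to 9.78 in NaCl/HI (median 9.61) and 9.46 to 9.96 in Sham (median 9.71). Every sample that had received LPS lay above every NaCl/HI sample, while Sham spread across both. LPS exceeded NaCl/HI by 0.31 (1.24-fold, interval 0.15 to 0.47, adjusted p = 0.014 by limma). This call was kept in 33 of 35 other fits and tests, among them all 23 fits with a library left out. It was lost in the exact Wilcoxon test, whose smallest possible p (0.00433), which Vcam1 reached, adjusted to 0.0593. LPS/HI exceeded NaCl/HI by 0.33 (interval 0.17 to 0.48), short of the threshold (adjusted p = 0.0665), and the adjusted p was 0.0332 without Sham replicate 5. Within libraries 1 to 12 and the later ones the first difference was 0.26 and 0.36, and the second 0.26 and 0.39. LPS/HI and LPS differed by 0.01 (interval -0.15 to 0.17), and against Sham LPS differed by 0.17 (adjusted p = 0.142) and LPS/HI by 0.18 (adjusted p = 0.122).

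**Figure D3:**
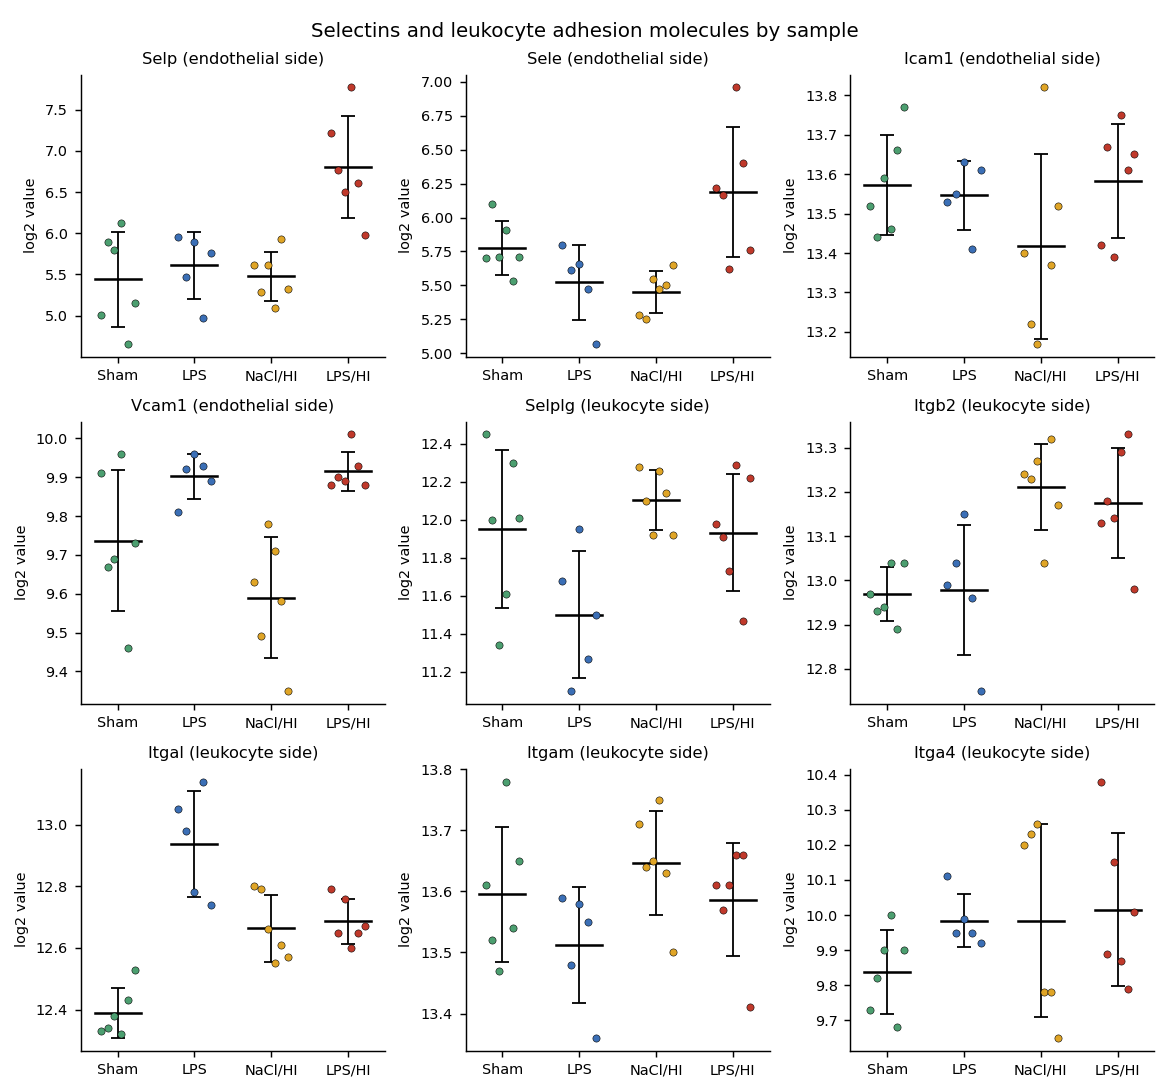
Log2 value (y axis, a separate scale for each gene) of the 9 members in each sample (points) by group (x axis), with group mean and SD as bars. For Selp all 6 LPS/HI samples lie above every LPS and NaCl/HI sample, for Vcam1 both LPS-exposed groups lie above NaCl/HI, and for Itgal all LPS samples lie above Sham.

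On the leukocyte side, PSGL-1 (Selplg), the main ligand of P-selectin, was lowest after LPS alone. The LPS samples were at 11.68, 11.10, 11.95, 11.27 and 11.50. Sham ran from 11.34 to 12.45 (mean 11.95), NaCl/HI from 11.92 to 12.28 (median 12.12) and LPS/HI from 11.47 to 12.29 (median 11.95). Of the LPS samples, 4 lay below all of NaCl/HI, replicate 3 at 11.95 lay just inside its range, and Sham spanned most of both groups. Selplg fell by 0.60 on the log2 scale in LPS against NaCl/HI (interval -0.98 to -0.22, adjusted p = 0.0414 by limma), with -0.52 and -0.72 in the libraries up to 12 and after. That call was lost in 9 of 23 fits with a library left out, those lacking 1 of LPS replicates 1, 2, 4 and 5, of NaCl/HI replicates 1, 2, 4 and 5, or LPS/HI replicate 2, with an adjusted p of up to 0.133. Against Sham the LPS difference was -0.45 (adjusted p = 0.0906), and it passed without Sham replicate 3 (0.0265) or LPS replicate 3 (0.046). LPS/HI and Sham differed by -0.02.

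The microglial markers were also lowest in LPS, their mean ranging from 12.24 to 12.42 there against 12.43 to 12.67 in Sham, 12.35 to 12.57 in NaCl/HI and 12.32 to 12.53 in LPS/HI. In LPS against NaCl/HI, 4 of the 11 measured markers were called lower and 0 higher, beside 8.98% of all genes called. With the platelet marker mean as a covariate the Selplg difference was -0.50 (adjusted p = 0.0942), and with the neutrophil marker mean -0.60 (adjusted p = 0.0551). The part of these cells in the Selplg difference was not tested.

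Itgb2, the beta chain shared by LFA-1 and Mac-1, was called in 1 comparison, lower in LPS than in NaCl/HI. Its values ran from 12.89 to 13.04 in Sham (median 12.95), 13.04 to 13.32 in NaCl/HI (median 13.24) and 12.98 to 13.33 in LPS/HI (median 13.16), with LPS at 12.99, 13.04, 13.15, 12.96 and 12.75. The lowest NaCl/HI sample, replicate 4, lay just above the highest Sham samples (all 13.04 when rounded), and LPS overlapped every group. LPS lay 0.24 below NaCl/HI (interval -0.38 to -0.10, adjusted p = 0.0321 by limma), with -0.19 and -0.32 in the earlier and later libraries and -0.23 (adjusted p = 0.0507) with the neutrophil covariate. The call was lost without LPS replicate 1, 2, 4 or 5 or NaCl/HI replicate 1, 2, 3 or 5, at an adjusted p of up to 0.1. NaCl/HI exceeded Sham by 0.25 (adjusted p = 0.134), and LPS/HI exceeded Sham by 0.21 (adjusted p = 0.0506). The former passed without NaCl/HI replicate 4 (0.0278). The latter passed without LPS replicate 3 or 5, NaCl/HI replicate 4 or LPS/HI replicate 1 or 6, at 0.0275 or above. LPS/HI and NaCl/HI differed by -0.04 (interval -0.17 to 0.10).

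Itgal, the alpha chain that makes LFA-1 with Itgb2, gave the most stable call of the 9 members. Its values were 13.05, 12.98, 12.78, 13.14 and 12.74 in LPS, above all Sham samples, which lay between 12.32 and 12.53 (median 12.36). NaCl/HI ran from 12.55 to 12.80 (median 12.64) and LPS/HI from 12.60 to 12.79 (median 12.66). All 17 samples of the treated groups lay above all 6 Sham samples, and the HI groups reached into LPS only at its replicates 3 and 5. LPS exceeded Sham by 0.55 (1.47-fold, interval 0.41 to 0.69, adjusted p = 1.1e-05 by limma), with 0.59 and 0.51 in the earlier and later libraries. Its adjusted p stayed under 0.05 in each of 35 other fits and tests, with a difference of 0.50 to 0.60, but the size was below a fold of 1.5.

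LPS/HI exceeded Sham by 0.30 in Itgal (interval 0.16 to 0.43, adjusted p = 0.0091, 0.38 and 0.21 by library numbers). With the neutrophil marker mean as a covariate the adjusted p was 0.0505 at a difference of 0.31, and with the platelet marker mean 0.0741 at 0.26. NaCl/HI exceeded Sham by 0.28 (adjusted p = 0.112, 0.40 and 0.15), and passed without NaCl/HI replicate 4 (0.0264). LPS exceeded NaCl/HI by 0.27 (adjusted p = 0.0142, 0.19 and 0.36), a call lost without LPS replicate 4 (0.0542) and with the 2 groups alone. The exact Wilcoxon test gave p = 0.0519 before adjustment for that difference, and no gene could pass it there after adjustment. LPS/HI lay 0.25 below LPS (adjusted p = 0.0561), and passed without LPS replicate 3 (0.0353) or 5. LPS thus added 0.55 to Sham and 0.02 to HI, and the interaction was -0.53 (SE 0.09, interval -0.72 to -0.33, adjusted p = 0.0157), with -0.61 and -0.45 by library numbers. It held in all 23 fits with a library left out and was lost with a replicate block (adjusted p = 0.0769 by limma). With the endothelial marker mean as a covariate the interaction was -0.50 (adjusted p = 0.0991) and with the neutrophil marker mean -0.51 (adjusted p = 0.145), and the call was lost. The part of these cells in the interaction was not tested.

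Itgam, the alpha chain of Mac-1, ran from 13.47 to 13.78 in Sham, 13.36 to 13.59 in LPS, 13.50 to 13.75 in NaCl/HI and 13.41 to 13.66 in LPS/HI. All groups overlapped, and the largest of its differences was -0.13 in LPS against NaCl/HI (interval -0.26 to 0.00, adjusted p = 0.2 by limma). Itga4, the alpha chain of VLA-4, had a mean of 9.84 ± 0.12 (SD, n = 6) in Sham with a lowest value of 9.68, and ran from 9.92 to 10.11 in LPS, 9.65 to 10.26 in NaCl/HI and 9.79 to 10.38 in LPS/HI. Against Sham the differences were 0.15, 0.14 and 0.17 (adjusted p = 0.403, 0.548 and 0.308). NaCl/HI replicates 1 to 3, all from the earlier libraries, lay at 10.20, 10.23 and 10.26, and replicates 4 to 6 at 9.78, 9.78 and 9.65. The difference of NaCl/HI from Sham was therefore 0.41 in the earlier libraries and -0.12 in the later ones.

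Other vascular adhesion genes were counted from a list of 17, of which 14 were in the table. In LPS/HI against Sham, where 8.77% of all genes were called, 4 of them rose and 0 fell, with a list median of 0.14 beside 0.00 over all genes. The 3 largest were Cd34, a sialomucin of endothelium and blood progenitors, by 0.40 (adjusted p = 0.00536), Ackr1, a chemokine-binding receptor of venules, by 0.41 (adjusted p = 0.0459), and Mcam, an endothelial and pericyte adhesion molecule, by 0.29 (adjusted p = 0.0317). Ackr1 was tight in LPS/HI, at 6.59 to 6.73, above all NaCl/HI samples at 5.76 to 6.22, and that difference of 0.61 was called too (adjusted p = 0.046). Against LPS, Mcam (0.42) and the junction protein gene Esam (0.38) were called higher in LPS/HI (adjusted p = 0.0145 and 0.0294). In that comparison 16 of 17 endothelial markers had the higher mean in LPS/HI (median 0.20, 2 called), as did 9 of 9 mural cell markers (median 0.21, 2 called), beside 1.94% of all genes called. LPS alone against Sham raised Cd34 by 0.29 (adjusted p = 0.0177), while Esam fell by 0.30 (adjusted p = 0.0241) and F11r, another junction protein gene, fell by 0.25 (adjusted p = 0.0234), and 4 of 17 endothelial markers were called lower there and 1 higher, beside 17.8% of all genes called. The part of these cells in the vascular genes was not tested. The interaction called 1 gene of this list, Podxl, at 0.42 (adjusted p = 0.0436), beside 1.08% of all genes called, and 17 of 17 endothelial markers lay on the same side there (median 0.31, 2 called). In LPS/HI against NaCl/HI, where Ackr1 was called, 17 of 17 endothelial markers had the higher mean in LPS/HI (median 0.17, 0 called by limma). NaCl/HI against Sham called 0 of 14 in limma. In that comparison 2 genes of the whole table were called.

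Among 11 measured genes of selectin ligands and the enzymes that glycosylate them, 4 were called in LPS/HI against Sham, all higher, beside 8.77% of all genes. They included Cd44, a hyaluronan receptor that can bind E-selectin, by 0.84 (adjusted p = 0.0442), and Spn, the leukocyte sialomucin CD43, by 0.44 (adjusted p = 0.00704). The Cd44 mean was 10.05 ± 0.33 (SD, n = 6) in LPS/HI and 10.19 ± 0.71 in NaCl/HI, against 9.21 ± 0.36 in Sham. In LPS/HI against Sham, 11 of 14 neutrophil markers also had the higher mean in LPS/HI (median 0.21, 5 called higher and 0 lower). Their part in the calls of this list was not tested. LPS against Sham, with 17.8% of all genes called, called 3, with Fut7, the fucosyltransferase that completes selectin ligands, higher by 0.41 (adjusted p = 0.00124), Spn higher by 0.28 (adjusted p = 0.0479) and the sialyltransferase gene St3gal6 lower by 0.18 (adjusted p = 0.0456). Fut7 lay between 8.38 and 8.78 in LPS and between 8.09 and 8.4 in Sham, with a narrow overlap. Of the 15 further integrin and integrin-activator genes, 2 were called in LPS/HI against Sham, a share near the 8.77% of all genes. These were Itgax, the alpha chain of another Itgb2 integrin and part of the antigen of the sort, by 0.85 (adjusted p = 0.0127), and Itgb7, an alternative partner of Itga4, by 0.59 (adjusted p = 0.0361). Itgax had means of 10.55 ± 0.36 in LPS/HI and 10.50 ± 0.40 in NaCl/HI (SD, n = 6 each), and Itgb7 of 8.11 ± 0.29 and 7.96 ± 0.45. Itgb1, the usual partner of Itga4, fell by 0.17 in LPS against Sham (adjusted p = 0.0209) and by 0.16 against NaCl/HI (adjusted p = 0.0422).

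The 9 genes listed as inducers, cytokines, receptors and NF-kB components that control endothelial adhesion molecules, with the NF-kB inhibitors Nfkbia and Tnfaip3 among them, gave 3 calls by limma in LPS against Sham, where 17.8% of all genes were called, and 0 in LPS/HI against Sham, where 8.77% were. The difference between these counts was not tested. In LPS, Il1b rose by 0.43 (adjusted p = 0.0162) and Nfkb1 by 0.14 (adjusted p = 0.0297), and the interleukin-1 receptor gene Il1r1 fell by 0.28 (adjusted p = 0.0265). Il1b ranged from 12.12 to 12.51 in LPS and from 11.95 to 12.39 in LPS/HI, against 11.58 to 12.12 in Sham and 11.49 to 12.21 in NaCl/HI. Against NaCl/HI, LPS was higher by 0.54 in Il1b (adjusted p = 0.00574) and by 0.20 in Nfkb1 (adjusted p = 0.0048). LPS/HI exceeded LPS by 0.36 in Il1r1 (adjusted p = 0.0336).

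Samples of 1 group also differed among themselves, and 72 relations of such deviations from the group mean were computed over the 23 samples, with permutation p values adjusted over all 72. Of these, 3 passed. Icam1 followed the platelet marker mean (r = 0.83, rho = 0.83, adjusted permutation p = 0.00288, r = 0.75 without the 2 farthest samples). Selplg followed the microglial marker mean (r = 0.75, rho = 0.81, adjusted permutation p = 0.0126, r = 0.69 without the 2 farthest samples). Selp followed the neutrophil marker mean (r = 0.69, rho = 0.68, adjusted permutation p = 0.0178, r = 0.54 without the 2 farthest samples) and not detectably the endothelial marker mean (r = 0.20, adjusted permutation p = 0.756). With deviations taken within each library-number range of each group, r was 0.75, 0.74 and 0.72 in the same order, and all 3 had an adjusted permutation p of 0.101. Selp and Sele correlated at 0.62 (adjusted permutation p = 0.0942). Of the ligand and receptor pairs, Selp with Selplg had r = -0.09, Sele with Selplg 0.03 and Vcam1 with Itga4 0.24. Icam1 had r = -0.41 with Itgal, -0.01 with Itgam and -0.19 with Itgb2. The adjusted permutation p of these pairs lay between 0.302 and 0.995.

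**Figure D4:**
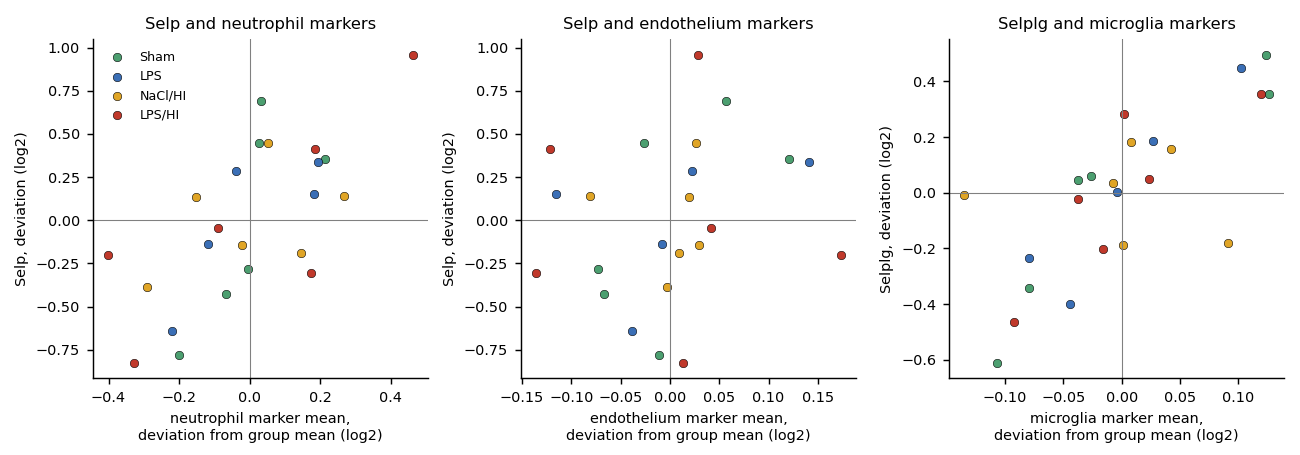
Deviations of single samples from their group mean (log2, both axes) for Selp against neutrophil markers (left), Selp against endothelial markers (middle) and Selplg against microglial markers (right), colored by group. The left and right panels slope upward (r = 0.69 and 0.75) and the middle panel does not visibly (r = 0.20).

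The genes whose deviations were most like those of each member, over the 23 samples and the whole table, are given as a description, since the best of 20301 genes will correlate in any case and the samples share library and depth. For Selp they were Crispld2 (r = 0.83), Nfe2, a transcription factor of platelet-forming and red cell precursors (0.83), and Anxa1, annexin A1, abundant in neutrophils (0.80). For Sele they included Sod2, the mitochondrial superoxide dismutase (0.88), and Lypd8 (0.83). Icam1 ran with Csrnp1 (0.90), Rela, the p65 subunit of NF-kB and also on the inducer list (0.90), and Mob3c (0.89). Vcam1 ran with Cyp2d4 (0.88), Tmem175 (0.82) and Fbxo38 (0.79). Selplg was nearest to Tmem119, itself on the microglial marker list (0.91), Trim54 (0.84) and RGD1306474 (0.76). Among the integrins, Itgb2 was nearest to Gpr153 (0.90), P2ry6, a microglial UDP receptor (0.88), and Acp2 (0.86), and Itgal to Lta4h, which makes leukotriene B4 (0.88), Tbc1d1 (0.86) and Mettl27 (0.85). Itgam was nearest to Jak1 (0.87), Plekha2 (0.83) and Cyth4 (0.80), and Itga4 to Lrrk2 (0.93), Igf2r (0.90) and Anpep (0.90). No 2 members shared a gene among these.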

How the data were processed

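RNA of 23 microglial samples was sequenced. Per the labels and the study's methods, the authors quantified reads with kallisto 0.48.0 on rat build mRatBN7.2, checked them with FastQC 0.11.9 and MultiQC 1.14, and normalised counts with DESeq2. The deposited values are log2 (regularised log), from which the authors removed surrogate variables. Whether the groups were protected is not given in the sources used here. Residuals from the group means had rank 16 against 19 degrees of freedom, so 3 dimensions were missing within groups, and such removal can make p-values too small. No counts were used, so depth and counting precision are unknown.

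All 23 samples entered 1 limma 3.58.1 fit (R 4.3.3) on the log2 values with a variance trend and 16 residual degrees of freedom, with p-values adjusted by Benjamini-Hochberg over 20301 genes. The titles name separate biological replicates. Correlations used deviations from group means and 100000 permutations within groups (two-sided). Members, lists and markers were chosen with earlier results of these data known. Named were all 9 members, up to 3 called genes per list and comparison with the largest differences, the 3 likest genes per member, and markers of high or low level. Some single-gene results are not reported here. Libraries numbered 1 to 12 and 13 to 23 were compared because the replicates fall into these numbers, whose meaning the labels do not give. Alternatives were 19 degrees of freedom, no variance trend, the 2 groups alone, a replicate block, the library numbers as a term, median centring, omission of the 25% of genes with the lowest means, quantile normalization, an exact two-sided Wilcoxon test, fold thresholds of 1.5 and 2, each library left out, Spearman's rho and, added after seeing the data, 3 marker means as covariates. The scripts were tested on simulated data. Figures used matplotlib 3.10.9.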

Additional observations from a re-analysis of the deposited data

Results flagged for a closer look

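Itgal is given here because its response to LPS differed with and without HI by a test of that difference, an interaction of -0.53 on the log2 scale (adjusted p = 0.0157 by limma). With the endothelial or neutrophil marker mean as a covariate it was -0.50 and -0.51, and the call was lost (adjusted p = 0.0991 and 0.145). The part of these cells was not tested. The call was also lost with a replicate block (-0.53, adjusted p = 0.0769 by limma). LPS exceeded Sham by 0.55 on average, with 5 of 5 samples above the Sham mean, and LPS/HI differed from NaCl/HI by 0.02. HI went with hemisphere tissue and pooled pups, which cannot be told apart from it.

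Of the 36 sets of values of 1 gene in 1 group, 1 held a sample far from the others. Itgam in LPS/HI replicate 6 was at 13.41, and its gap to the next sample was 0.64 of the range of the group. Chance flags about 1 in 20 such sets.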

How the results depend on the processing

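Itgal in LPS against Sham kept its direction and an adjusted p under 0.05 in each other fit and test, though not a fold above 1.5. With a replicate block the members called were 1 in LPS against Sham, 0 in NaCl/HI against Sham, 2 in LPS/HI against Sham, 0 in LPS/HI against LPS, 0 in LPS/HI against NaCl/HI, 2 in LPS against NaCl/HI and 0 for the interaction (Itgal, adjusted p = 0.0769), of which the first 3 counts did not move. In LPS against NaCl/HI the block lost Selplg (adjusted p = 0.0796 by limma) and Itgb2 (0.0713). Of 33 pairs with 1 replicate number in different groups, 8 correlated above 0.1 (range -0.47 to 0.47). The surrogate variables removed before deposit may have held a shared part, so these values cannot decide whether the numbers pair the samples. With 19 residual degrees of freedom, NaCl/HI against Sham called 1, LPS/HI against LPS 3, LPS/HI against NaCl/HI 3 and the interaction 2. Leaving out the lowest 25% of genes gave 3 in LPS/HI against LPS and 2 for the interaction. In that fit fewer genes entered the adjustment and the variance trend was estimated anew. LPS/HI against LPS called 2 with median centring and 0 with no variance trend, with the 2 groups alone, with the endothelial or neutrophil covariate and by the exact Wilcoxon test. LPS/HI against NaCl/HI called 0 under each of those, median centring included, and 0 with the library numbers as a term, quantile normalization or the platelet covariate. LPS/HI against Sham called 0 with the platelet or the neutrophil covariate. LPS against NaCl/HI called 1 with the 2 groups alone, 2 with the neutrophil covariate and 0 by the exact Wilcoxon test. In the 3 comparisons with 0 Wilcoxon calls given here, the smallest p that test allows did not pass after adjustment, so its counts of 0 say nothing about the calls. The interaction called 0 with the endothelial or neutrophil covariate, and it could not be run with the Wilcoxon test or with 2 groups. With a fold above 2, LPS/HI against Sham called 1, and LPS against Sham, LPS against NaCl/HI and the interaction 0. With a fold above 1.5 these gave 1, 0, 1 and 0. Of the 72 within-group correlations 0 passed with library numbers removed. The causes were not tested.

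Leaving out 1 library at a time, the members called were 1 to 2 in LPS against Sham, 0 to 2 in NaCl/HI against Sham, 2 to 3 in LPS/HI against Sham, 0 to 2 in LPS/HI against LPS and against NaCl/HI, 1 to 4 in LPS against NaCl/HI and 1 to 2 for the interaction, and 2 to 4 correlations passed. Differences near 0 that turned their sign in such a fit were Icam1 (-0.05 to 0.01) and Itgb2 (-0.03 to 0.06) in LPS against Sham and Selp in NaCl/HI against Sham (-0.12 to 0.18). In LPS/HI against Sham they were Icam1 (-0.03 to 0.05), Selplg (-0.14 to 0.08) and Itgam (-0.03 to 0.03). In LPS/HI against LPS they were Icam1 (-8.26e-05 to 0.07), Vcam1 (-0.01 to 0.03) and Itga4 (-0.04 to 0.07). The others were Itgal (-0.000408 to 0.05) and Itga4 (-0.04 to 0.08) in LPS/HI against NaCl/HI, Itga4 in LPS against NaCl/HI (-0.07 to 0.06) and Itgam in the interaction (-0.01 to 0.06).

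Signs also turned under other settings, none of them for a called difference. With the platelet covariate, LPS against Sham turned for Selp (-0.22), Icam1 (0.18), Itgb2 (-0.02) and Itga4 (-0.05), NaCl/HI against Sham for Selp (-0.13), LPS/HI against Sham for Selplg (0.14), LPS/HI against NaCl/HI for Itga4 (-0.05), and LPS against NaCl/HI for Selp (-0.09) and Itga4 (-0.11). The endothelial covariate turned Icam1 in LPS against Sham (0.03), LPS/HI against Sham (-0.02) and LPS/HI against LPS (-0.05), Selplg in LPS/HI against Sham (0.04), Itga4 in LPS against NaCl/HI (-0.03), and Itgam (-0.02) and Itga4 (0.07) in the interaction. The neutrophil covariate turned Vcam1 (-0.01) and Itga4 (-0.16) in LPS/HI against LPS and Itga4 in LPS/HI against NaCl/HI (-0.12). Median centring turned Icam1 in LPS/HI against Sham (-0.01), Vcam1 (-0.02) and Itga4 (-0.00263) in LPS/HI against LPS and Itgam in the interaction (-0.01). Quantile normalization turned Itgb2 in LPS against Sham (-0.03), Icam1 in LPS/HI against Sham (-0.02) and Itga4 in LPS against NaCl/HI (-0.03). The replicate block turned Itgb2 in LPS against Sham (-0.00179) and Itga4 in LPS against NaCl/HI (-0.02), and the library numbers turned the latter too (-0.02). The cause was not tested.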
